A study of Mus musculus with 28 samples.

Results

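The acute phase and fibrinogen genes described here were 10 listed genes among the 54446 genes counted in every library. They were chosen by name and not by their values, although earlier results of these data were known. They comprised the 3 fibrinogen chain genes Fga, Fgb and Fgg, the serum amyloid A genes Saa1, Saa2 and Saa3, haptoglobin (Hp), the orosomucoid genes Orm1 and Orm2, and lipocalin 2 (Lcn2). All 10 were found by gene identifier, on chromosome 3 for the fibrinogen chains, 7 for the Saa genes, 4 for the Orm genes, 8 for Hp and 2 for Lcn2.

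The study gavaged male C57BL6J mice aged 8 weeks with water or with nicotinamide mononucleotide (NMN), a precursor of NAD, for 7 days. It looked for subacute toxicity and sequenced polyA RNA of liver and kidney in 28 libraries. The lower arm was gavaged once daily at 1340 mg/kg per day, with 4 NMN and 4 water libraries in each organ. The higher arm was gavaged 2 times daily at 2680 mg/kg per day, with 3 NMN and 3 water libraries in each organ. Dose and number of gavages changed together between the arms and cannot be told apart, and each arm had its own water mice. Liver libraries held 12688324 to 16455228 counted reads in the 1340 arm and 17573184 to 20635269 in the 2680 arm, and kidney libraries 13174264 to 15696435 and 16358886 to 33872983. The labels do not say which liver and kidney library came from the same mouse, so p-values measure the spread between these libraries only.

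The acute phase response is the change in the proteins that the liver secretes after infection, tissue damage or stress. Interleukin 6, acting through STAT3, and interleukin 1, acting through NF-kappaB, are its main drivers in hepatocytes, with C/EBP transcription factors binding many of the promoters. Fibrinogen, the clotting precursor, and haptoglobin are made abundantly at rest and are induced moderately, serum amyloid A is induced steeply, and albumin and transthyretin are negative acute phase proteins that decline. In the kidney these genes are normally low, although fibrinogen and lipocalin 2 can be made by tubule cells under injury.

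Sequences 5′ of the transcription start are shown for the genes on which the comparisons turn. They come from RefSeq (build GRCm38.p6), which gave a promoter for 8 of the 10 genes and none for Hp and Orm1. Saa1 (chr7:46742981-46743230, minus strand) and Saa2 (chr7:46751583-46751832, plus strand) face away from each other and are nearly identical over the 250 bases before their starts, with 238 identical bases in 251 alignment columns (94.8%). Capitals mark the bases at which the pair differ, gaps included.
Saa1: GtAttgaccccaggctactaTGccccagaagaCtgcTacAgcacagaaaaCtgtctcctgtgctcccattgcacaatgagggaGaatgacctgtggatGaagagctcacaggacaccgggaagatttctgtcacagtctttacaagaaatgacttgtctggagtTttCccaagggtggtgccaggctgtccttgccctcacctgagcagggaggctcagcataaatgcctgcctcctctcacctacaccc
Saa2: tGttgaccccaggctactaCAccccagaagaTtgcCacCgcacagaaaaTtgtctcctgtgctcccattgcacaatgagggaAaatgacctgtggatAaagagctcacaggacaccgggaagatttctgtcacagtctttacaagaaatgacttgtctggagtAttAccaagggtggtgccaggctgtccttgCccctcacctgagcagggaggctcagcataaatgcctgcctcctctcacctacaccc
The last 150 bases before the start are shown for the fibrinogen chains and Orm2, from Fga (chr3:83026003-83026152, plus strand), Fgb (chr3:83049864-83050013, minus strand), Fgg (chr3:83007574-83007723, plus strand) and Orm2 (chr4:63362299-63362448, plus strand). Capitals mark matches to the C/EBP letters TTNNGCAA on either strand.
Fga: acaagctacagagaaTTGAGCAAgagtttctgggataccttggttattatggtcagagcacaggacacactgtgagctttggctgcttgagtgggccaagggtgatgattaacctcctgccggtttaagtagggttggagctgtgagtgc
Fgb: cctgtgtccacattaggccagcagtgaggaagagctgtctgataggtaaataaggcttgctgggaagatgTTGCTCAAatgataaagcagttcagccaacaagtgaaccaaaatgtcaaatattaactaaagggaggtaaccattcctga
Fgg: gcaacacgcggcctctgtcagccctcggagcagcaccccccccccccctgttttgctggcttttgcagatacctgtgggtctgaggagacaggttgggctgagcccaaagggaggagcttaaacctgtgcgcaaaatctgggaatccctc
Orm2: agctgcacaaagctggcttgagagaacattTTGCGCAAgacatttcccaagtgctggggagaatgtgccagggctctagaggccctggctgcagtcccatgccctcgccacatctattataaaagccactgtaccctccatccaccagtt
Over 250 bases on both strands the C/EBP letters were found in 7 of the 8 promoters, against 9.57% of 32841 promoters in the table, and Fgg was the promoter without them. The STAT letters TTCNNNGAA were found in Fga and Fgb (7.02% of all promoters), without overlapping the C/EBP letters. The kappaB pattern searched was found in none of the 8 (7.25%). Its letters are not given here, and a looser kappaB pattern could match where this one did not, also in the Saa1 sequence above. A match describes letters only and is not a measured binding site. The longest coding transcripts of Saa1 and Saa2 are 87.3% identical, with a longest shared run of 76 bases, and those of Orm1 and Orm2 91.0%, with a shared run of 141 bases. Alignments that were not unique were counted for no gene. How many of them fell in such runs could not be checked, so single values of these pairs are uncertain to that extent.

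The libraries were first compared with their organ labels. All 10 hepatocyte markers were detected in every liver library, with albumin (Alb) the most abundant, and their summed level lay between 101866 and 168038 counts per 1000000 counted reads (CPM). All 8 kidney tubule markers were detected in every kidney library, with a summed level of 23009 to 38949 CPM. Traces of the other organ differed between the arms. Tubule markers summed to 41.3 to 47.7 CPM in water livers of the 1340 arm and 1.21 to 9.40 CPM in those of the 2680 arm, and NMN liver replicate 1 of the 2680 arm stood apart from the other 2 at 36.4 against 1.76 and 1.80 CPM. Hepatocyte markers summed to 146 to 198 CPM in water kidneys of the 1340 arm and 61.2 to 69.0 CPM in those of the 2680 arm. The sum hides unlike changes. From the 1340 to the 2680 arm the water kidney mean went from 88.1 to 10.5 CPM for Alb, 9.28 to 0.113 for Ahsg and 14.5 to 0.163 for Serpina3k. Apoh (7.36 in both) and Itih1 (4.08 and 4.01) hardly differed. Only C8a was higher, at 19.1 and 30.2 CPM, and it was the largest part of the sum in the 2680 arm.

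In the liver the 10 genes together took 1.64% to 4.22% of counted reads. Per kilobase of transcript, water livers of the 2680 arm ranked Fgg first at 2801 ± 202 CPM per kb (SD, n = 3), followed by Hp at 2395 ± 375, Fga at 2042 ± 51.2, Fgb at 1610 ± 32.2 and Orm1 at 1537 ± 209 CPM per kb. Saa1 followed at 976 ± 555, Saa2 at 572 ± 456, Orm2 at 141 ± 33.8, Lcn2 at 89.1 ± 71.1 and Saa3 at 1.73 ± 0.517 CPM per kb. In this order the ranges of mean ± SD of neighbours overlapped except between Fga and Fgb and between Lcn2 and Saa3. In water livers of the 1340 arm Hp ranked first at 4108 ± 1761 CPM per kb (SD, n = 4), and Saa1, at 3023 ± 5356 CPM per kb, came ahead of Fgg only through 1 library.

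The 3 fibrinogen chains, which are assembled into 1 secreted protein, were the steadiest of these genes. The SD of log2 CPM within groups, pooled over the 4 liver groups, was 0.21 for Fga, 0.25 for Fgb and 0.24 for Fgg, against a median of 0.233 over the 7113 genes with at least 10 CPM on average. The same SD was 2.41 for Saa2, 1.88 for Saa1, 1.84 for Lcn2 and 1.33 for Orm2, and 1, 4, 5 and 26 of the 7113 genes had a larger one. Orm1 (0.54) and Hp (0.46) lay between. Saa3 was below the 10 CPM floor of this comparison.

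**Figure D1:**
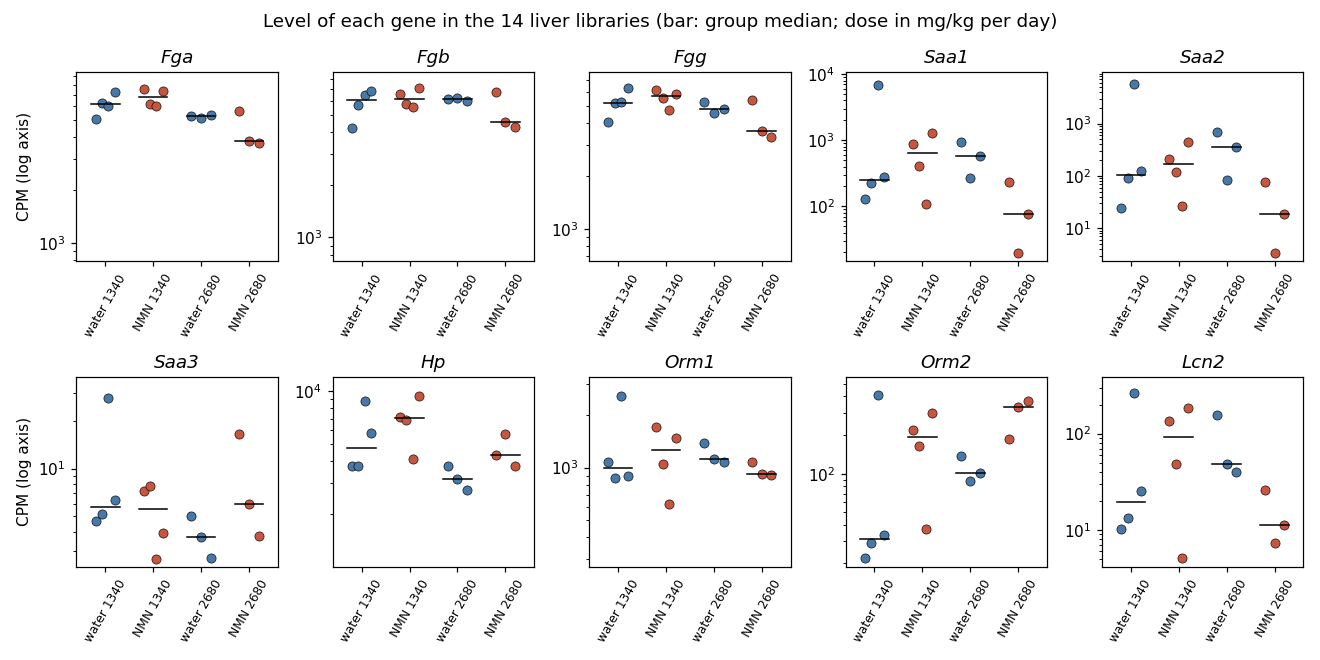
Level of each of the 10 genes in the 14 liver libraries, in CPM on a log axis, by group (points: libraries, bar: group median). Fibrinogen chains spread little within a group, while Saa1 in water livers of the 1340 arm runs from 128 to 6732 CPM.

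Among the water livers of the 1340 arm, 1 mouse was high for several of these genes at once. Saa1, an apolipoprotein of acute phase high density lipoprotein, was at 128, 223, 6732 and 281 CPM in replicates 1 to 4. Saa2, its near copy, was at 24.3, 89.7, 5593 and 122 CPM, and Lcn2, which binds bacterial iron carriers, at 10.1, 13.4, 264 and 25.5 CPM. Replicate 3 was the high library for each of them, and it was also the highest of the 4 for Saa3, Hp, Orm1 and Orm2. Of the 10 genes, 6 stood more than 1 log2 unit above the median of the water livers of this arm there (Saa1, Saa2, Saa3, Orm1, Orm2 and Lcn2), and 19 of 21 other positive acute phase genes were above that median, against 2 of 10 negative acute phase genes. Of 9 Kupffer cell and macrophage markers, 4 were highest in this library and 5 in replicate 2. Marco, a macrophage receptor, showed the widest gap, at 19.1 CPM against 2.11 to 4.80 in the other 3, while Cd68, a lysosomal marker, was lowest there at 2.61 CPM. The fibrinogen chains were not set apart in it, with Fga at 5072, 6299.5, 6064 and 7278 CPM in the same 4 libraries.

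After each gene's group mean was removed, the chains varied together over the 14 liver libraries. Pearson's r was 0.961 for Fga with Fgg and 0.928 for Fga with Fgb (0.965 and 0.971 without water replicate 3 of the 1340 arm). Saa1 and Saa2 varied together as well (r = 0.990, and 0.978 without that library), as did Saa1 and Lcn2 (0.920 and 0.878), while the r of Saa1 with Orm2 was 0.821 with and 0.570 without it. These values are a description of 14 libraries that share depth and dissection. Reads in runs common to near-identical copies add the uncertainty given above. Among genes outside the list, Ttc38 (r = 0.933), Cfi, a complement regulator (0.902), Ube2w (0.869), Camk2n1 (0.850) and Dusp28 (0.841) were most like the mean of the fibrinogen chains. Crp, the C-reactive protein gene (0.923), Ildr2 (0.908), C3, the central complement component (0.908), and Rbfox2 (0.908) were among the genes most like the mean of Saa1 and Saa2.

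**Figure D2:**
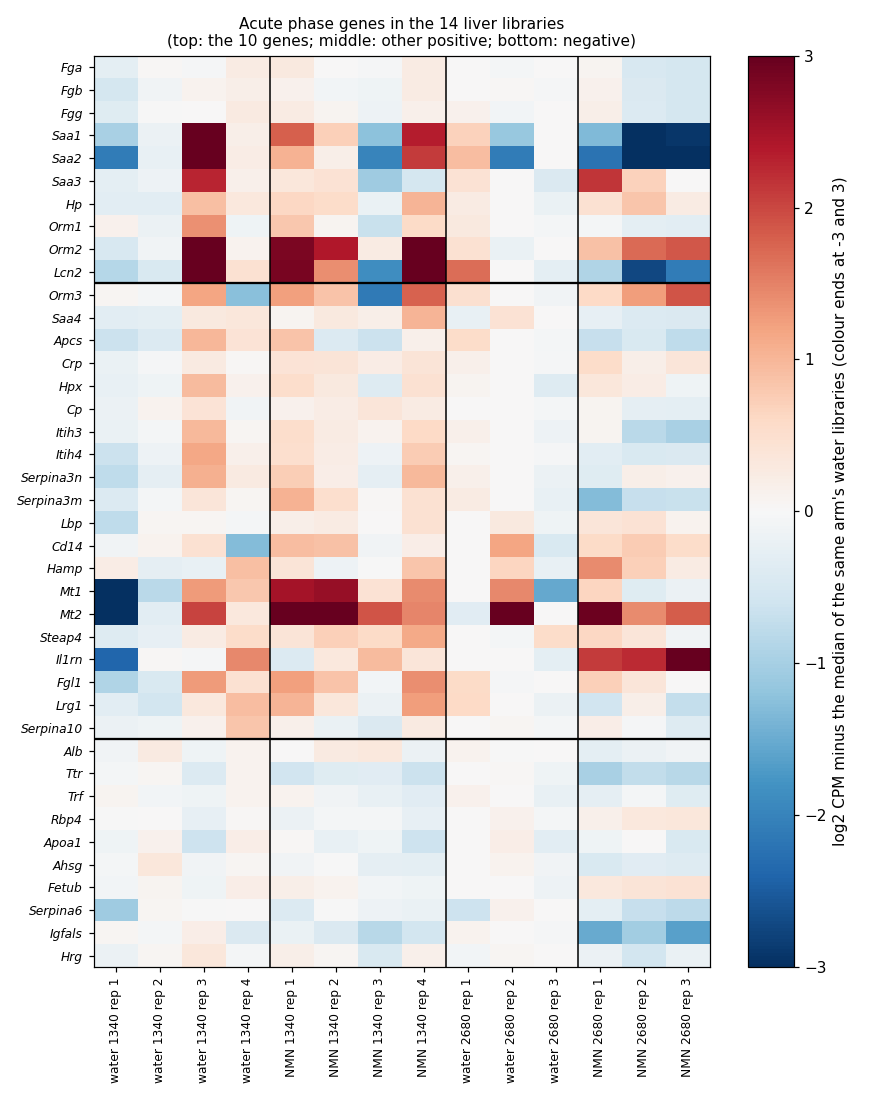
Log2 CPM of the 10 genes (top), 20 of the other positive (middle) and 10 negative acute phase genes (bottom) in the 14 liver libraries, minus the median of the same arm's water libraries, with colours ending at -3 and 3. Water replicate 3 of the 1340 arm is high for 6 of the 10 genes by more than 1 log2 unit, and NMN libraries of that arm range from 10 of 10 genes above the median (replicate 1) to 1 of 10 (replicate 3).

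The NMN comparison in the liver at 1340 mg/kg per day asked whether a high single daily dose moved these genes. None of the 10 passed the test. The test was edgeR's quasi-likelihood test, its p adjusted by Benjamini-Hochberg over 12449 genes, and 0 of 10 passed an adjusted p of 0.05, where 2 of 12449 genes did (0.0161%). At an unadjusted p under 0.05 there were also 0 of 10, against 6.86% of all genes, and DESeq2 called 0 of 10, against 0.573%. For none of the 10 genes were the NMN and water livers fully separated, against 3.94% of all genes. With NMN 6 of the 10 genes were higher and 4 lower, and their median log2 fold change was 0.09, against -0.003 over all genes.

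The fibrinogen chains differed little. Fga, the alpha chain, was at 7595, 6225, 6003 and 7359.7 CPM with NMN, with replicates 1 and 4 above the highest water liver and the other 2 within the range of the water livers given above, a log2 fold change of 0.13 ± 0.15 (SE, edgeR adjusted p = 0.914). Fgb, the beta chain, had a log2 fold change of 0.10 ± 0.16 and Fgg, the gamma chain, 0.09 ± 0.15. Hp, the haemoglobin scavenger, was at 7188, 6847, 4096 and 9452 CPM with NMN and at 3752, 3779.7, 8778 and 5789 CPM with water, a log2 fold change of 0.31 ± 0.31 (edgeR adjusted p = 0.897).

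The inducible genes had wide errors, and none of them passed. Saa1 was at 869.8, 414, 107 and 1286 CPM with NMN, and the log2 fold change against the water livers was -1.44 ± 1.52 (edgeR adjusted p = 0.909). The lowest NMN library, replicate 3, was below all water libraries and the other 3 were above all of them but replicate 3. Without water replicate 3 the log2 fold change of Saa1 was 1.64 (edgeR adjusted p = 0.585), so 1 library set its sign. Orm2, an acute phase lipocalin that binds small drugs and lipids, was at 219.97, 164, 36.8 and 299 CPM with NMN and at 21.9, 28.6, 408 and 33.1 CPM with water (log2 fold change 0.57 ± 1.18, edgeR adjusted p = 0.953). All 4 NMN livers were above the 3 lower water livers, and water replicate 3 was above all of them. Lcn2 with NMN was at 134, 48.8, 5.08 and 183 CPM (log2 fold change 0.27 ± 1.41). Saa2 (-2.83 ± 1.91), Saa3 (-1.002 ± 0.66) and Orm1 (-0.15 ± 0.44) did not pass either. Without water replicate 3 the log2 fold change became 2.66 for Orm2, 2.47 for Lcn2, 1.32 for Saa2, 0.33 for Orm1, 0.60 for Hp and -0.0032 for Saa3, and none of these passed.

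Other genes of the response at 1340 mg/kg per day were taken from further lists, chosen as the 10 were. Of 21 other positive acute phase genes 18 were higher and 0 passed the edgeR test, with a median log2 fold change of 0.36. At an unadjusted p under 0.05 there were 4, and DESeq2 called 0. Steap4, a metalloreductase (0.61), and Crp (0.32, adjusted p = 0.670) were among those with the smallest p-values and did not pass. Of 10 negative acute phase genes 9 were lower and 0 passed (2 at an unadjusted p under 0.05, 0 by DESeq2), led by Ttr, transthyretin (-0.43), Igfals, the acid-labile subunit that carries IGF (-0.46), and Ahsg, fetuin A (-0.24). Among 21 tested genes of interleukin 6 and 1 signalling and acute phase transcription factors, Il1r1, the interleukin 1 receptor, rose: it was at 81.8, 144, 122 and 91.3 CPM with NMN and 22.3, 24.5, 30.1 and 43.0 CPM with water, a log2 fold change of 1.86 ± 0.24 (3.62-fold, edgeR adjusted p = 0.0262). The call was lost in 4 of the 8 fits that left out 1 library, without NMN replicate 2 (adjusted p = 0.0713) or 3 (0.118) and without water replicate 2 (0.105) or 3 (0.104), and under a stricter threshold (adjusted p under 0.01 and a fold over 2). Every NMN liver was above every water liver for Il1r1, as for Il6ra, the interleukin 6 receptor, which did not pass (0.97 ± 0.25, adjusted p = 0.367). Hnf4a, a hepatocyte transcription factor (0.68), Stat3 (0.60), Cebpd (0.57), Socs3 (0.81), Apcs (-0.12), Orm3 (0.74) and Saa4 (0.38) did not pass. Il6, Il1b and Tnf were too low to be tested. The 12 neutrophil markers summed to 14.2, 12.2, 3.89 and 2.44 CPM with NMN and 2.94, 3.13, 3.34 and 3.62 CPM with water, with Mpo at 0 in all 8 livers and S100a9 the most abundant in the 2 higher NMN livers. Of the 3 markers tested none passed by edgeR, 2 had an unadjusted p under 0.05 (S100a8 at 2.13 and S100a9 at 1.93 on the log2 scale) and DESeq2 called none. None of 9 Kupffer cell and macrophage markers passed, with none at an unadjusted p under 0.05 and none by DESeq2. NMN replicates 1 and 2 held the higher neutrophil sums and replicates 1 and 4 the higher Saa1 and Lcn2 values, and a part of these cells in the values was not tested.

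In the liver at 2680 mg/kg per day, Orm2 was the gene of the 10 that changed: it rose 2.43-fold with NMN. The fibrinogen chains, Saa1, Saa2, Orm1 and Lcn2 had lower means with NMN, and none of them passed the edgeR test. So 1 of 10 genes was called, and 883 of 12477 genes were called in this comparison (7.08%), 380 of them higher (3.05%). A share of 1 in 10 is near that background. At an unadjusted p under 0.05 there were 6 of 10 genes, against 24.6% of all genes. The median log2 fold change of the 10 was -0.41, against 0.004 over all genes. In bulk tissue, fewer cells of a type and less RNA per cell cannot be told apart for any of these values.

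Orm2 was at 186, 329.5 and 367 CPM with NMN and at 138, 87.9 and 101 CPM with water, and its log2 fold change was 1.28 ± 0.27 (SE, n = 3 against 3, edgeR adjusted p = 0.0239). All 3 NMN livers were above all 3 water livers. Orm1, the more abundant copy, was at 1074, 916 and 904 CPM with NMN and at 1376, 1123 and 1074.5 CPM with water, with a log2 fold change of -0.46 ± 0.14 (edgeR adjusted p = 0.0769). The groups did not overlap, by less than 1 CPM between the highest NMN and the lowest water liver. Orm3, a further copy outside the 10 genes, had a log2 fold change of 1.05 ± 0.33 and did not pass (edgeR adjusted p = 0.0774). Orm2 made up 14.8%, 26.5% and 28.9% of Orm1 and Orm2 reads with NMN, against 9.14%, 7.26% and 8.60% with water, while the summed share of both genes in all reads was 0.126% ± 0.00129 and 0.130% ± 0.0187 (SD, n = 3). The share moved and the sum did not separate the groups. With the 3 Orm copies counted as 1 feature, no feature of the list passed. The Orm2 call was also lost without water replicate 2 (adjusted p = 0.100) or 3 (0.0842), without NMN replicate 2 (0.0553) or 3 (0.0864), when all 14 liver libraries were fitted together (0.526), with the replicate number as a block (0.0618) and under a stricter threshold (adjusted p under 0.01 and a fold over 2).

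**Figure D3:**
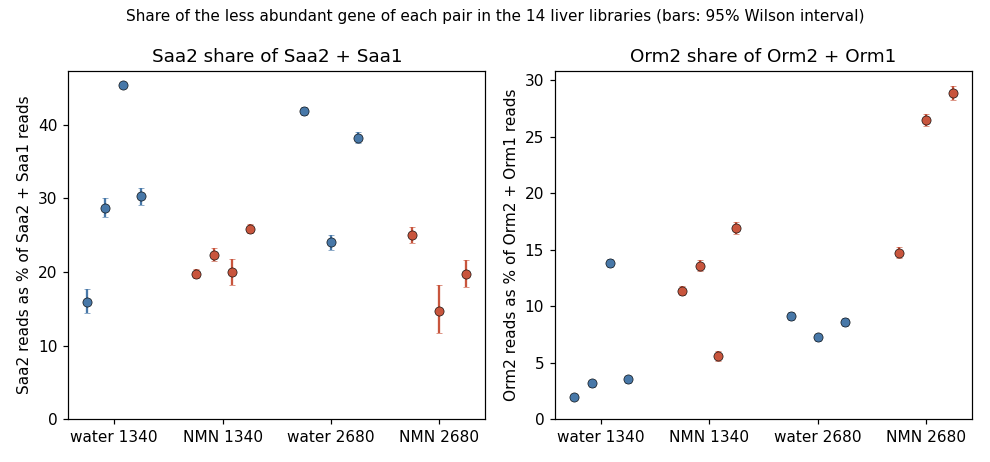
Saa2 reads as a percentage of Saa1 and Saa2 reads, and Orm2 reads as a percentage of Orm1 and Orm2 reads, in the 14 liver libraries, with 95% Wilson intervals that cover counting error only. The Orm2 share is 14.8% to 28.9% in the 3 NMN livers of the 2680 arm and 7.26% to 9.14% in its water livers.

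The fibrinogen chains were lower in 2 of the 3 NMN livers. Fga was at 5629, 3839.98 and 3696 CPM with NMN and at 5329.8, 5134 and 5386 CPM with water (log2 fold change -0.42 ± 0.16, edgeR adjusted p = 0.132). Fgb was at 6725, 4532 and 4243 CPM against 6122, 6261 and 6017 (-0.40 ± 0.16, adjusted p = 0.161, edgeR), and Fgg at 5401, 3626 and 3354 CPM against 5254, 4558 and 4816 (-0.39 ± 0.17, adjusted p = 0.181, edgeR). For all 3 chains NMN replicates 2 and 3 were below every water liver and NMN replicate 1 was above every water liver. That replicate is the liver library with tubule markers at 36.4 CPM, and mitochondrial genes took 9.24% of its counted reads, against 7.16% and 7.04% in the other NMN livers and 5.74% to 7.37% with water. The 50 most abundant genes took 38.0% to 39.6% of reads in the NMN livers of this arm and 41.9% to 43.2% in its water livers. Whether these differences bear on the fibrinogen values was not tested. Without it all 3 chains were called, with a log2 fold change of -0.63 each and edgeR adjusted p of 0.00892, 0.00958 and 0.0140, a comparison of 2 against 3 livers. The chains summed to 1.37% ± 0.35 of reads with NMN and 1.63% ± 0.04 with water (SD, n = 3). Over the 14 liver libraries the coefficient of variation of the level in CPM was 20.4% for Fga, 16.2% for Fgb and 17.8% for Fgg. Per kilobase, Fgg was 1.17 to 1.46 times Fga (coefficient of variation of the ratio 7.30%) and Fgb 0.561 to 0.828 times (13.3%). The ratio of Fgb to Fga separated the arms, at 0.561 to 0.725 in all 8 livers of the 1340 arm and 0.758 to 0.828 in all 6 of the 2680 arm, whether gavaged with NMN or water.

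The steeply inducible genes also had their lower values with NMN in this arm. Saa1 was at 231, 19.7 and 76.6 CPM with NMN and at 939.7, 264 and 578 CPM with water (log2 fold change -2.61 ± 1.04, edgeR adjusted p = 0.214). Saa2 was at 77.2, 3.40 and 18.8 CPM with NMN and at 677, 83.5 and 358 CPM with water (-3.66 ± 1.47, adjusted p = 0.229, edgeR), and Lcn2 at 26.0, 7.34 and 11.3 against 156, 48.7 and 39.5 CPM (-2.62 ± 0.78, adjusted p = 0.123, edgeR). All 3 NMN livers were below all 3 water livers for each of these genes, but within each group the values spread several-fold. Without NMN replicate 1 the log2 fold change was -3.78 for Saa1, -5.23 for Saa2 and -3.28 for Lcn2, and without water replicate 1 it was -2.10, -2.89 and -1.72, none of which passed. DESeq2, which called 11.6% of all genes, called Saa2 (adjusted p = 0.0379), Lcn2 (0.0142) and Orm2 (2.27e-05). With the replicate number as a block, edgeR called Saa1, Saa2, Orm1 and Lcn2. Calls under the block are not read as stronger or weaker effects. Over the 10 genes the groups were fully separated for 5, with Saa1, Saa2, Orm1 and Lcn2 lower and Orm2 higher, where 32.1% of all genes were separated, 22.2% higher and 9.87% lower. Saa3, which is made largely outside hepatocytes, was at 16.5, 5.99 and 3.74 CPM with NMN and 4.998, 3.68 and 2.73 CPM with water (1.03 ± 0.51, adjusted p = 0.2503, edgeR). Its difference rested on NMN replicate 1, the liver with the higher tubule markers, and was 0.21 on the log2 scale without it (edgeR adjusted p = 0.791). Hp was at 4319.98, 5687 and 3744 CPM with NMN and 3749, 3169.6 and 2745 CPM with water (0.36 ± 0.18, adjusted p = 0.241, edgeR).

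**Figure D4:**
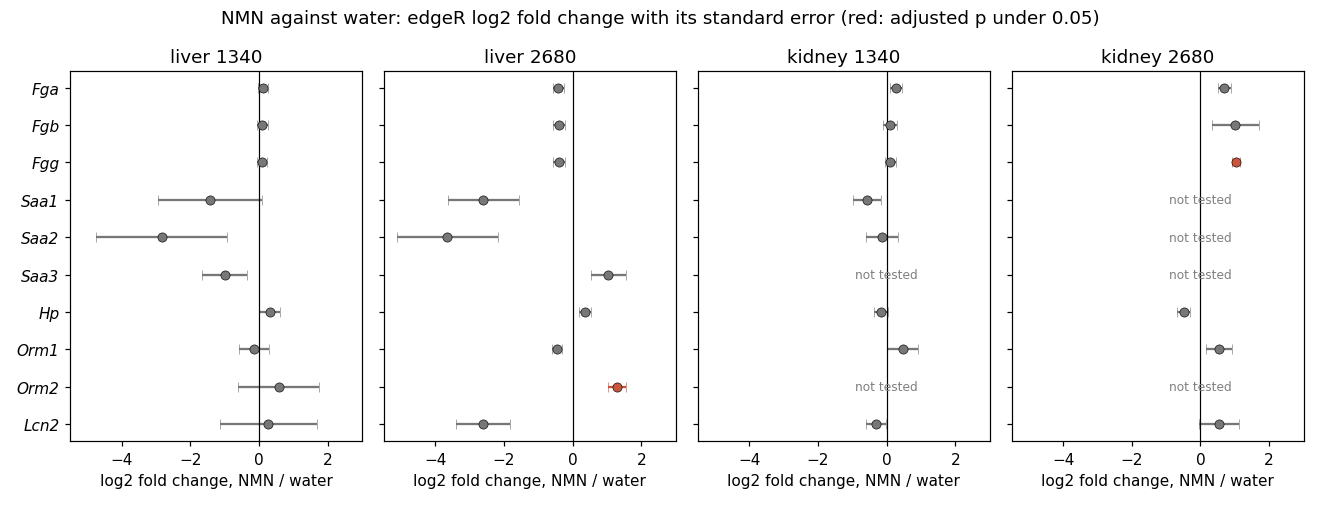
Log2 fold change of NMN against water for each tested gene in the 4 comparisons, with its standard error, from edgeR, with calls at an adjusted p under 0.05 in red. Called values are Orm2 in the liver (1.28) and Fgg in the kidney (1.03), both at 2680 mg/kg per day.

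Of 21 other positive acute phase genes at 2680 mg/kg per day, 2 rose, 3 fell and 16 did not pass the edgeR test, where 3.05% of all genes were called higher and 4.03% lower, and their median log2 fold change was -0.13. Il1rn, which encodes the interleukin 1 receptor antagonist, was at 6.06, 6.69 and 12.04 CPM with NMN and 1.41, 1.41 and 1.14 CPM with water, and rose by 2.49 ± 0.35 on the log2 scale (edgeR adjusted p = 0.00345). Apcs, serum amyloid P, which binds amyloid and dead cells, was at 72.9, 87.0 and 69.7 CPM with NMN and 173, 119 and 114 CPM with water, and fell by 0.97 on the log2 scale (edgeR adjusted p = 0.0148). Serpina3m, a serine protease inhibitor, fell by 1.03 (adjusted p = 0.0152, edgeR) and Itih4 by 0.56 (adjusted p = 0.0194, edgeR). Crp (0.18, adjusted p = 0.463) and Saa4, the constitutive serum amyloid A (-0.61, adjusted p = 0.0563), did not pass. With a library left out, Il1rn was called in every fit, Apcs was lost without NMN replicate 3, Serpina3m without water replicate 1 or 2, and Itih4 without any of those 3 libraries (adjusted p of up to 0.0848).

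Of 10 negative acute phase genes 0 rose and 3 fell, against the same 4.03% of all genes called lower, with a median log2 fold change of -0.40. Igfals was at 43.8, 60.4 and 39.8 CPM with NMN and 132, 124 and 120.5 CPM with water, and fell by 1.54 on the log2 scale (edgeR adjusted p = 0.00123). Ttr fell by 0.97 (adjusted p = 0.00227, edgeR) and Ahsg by 0.55 (adjusted p = 0.0216, edgeR). Of 10 hepatocyte markers 4 were called lower, Vtn, Serpina3k, Ambp and Ahsg, none was called higher and 6 did not pass. Their median log2 fold change was -0.49, and their summed level was 125752 to 138149 CPM with NMN against 154312 to 168038 with water. Alb, the most abundant, did not pass (-0.36, adjusted p = 0.0750). Igfals and Ttr were called in every fit with a library left out, while Ahsg, Ambp and Vtn were lost without NMN replicate 3 or water replicate 1 or 2, and Serpina3k without either of these water libraries (adjusted p of up to 0.106). Their part in the lower values of the fibrinogen and Saa genes was not tested.

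Of 22 tested signalling genes and transcription factors 3 rose and 1 fell, against 3.05% and 4.03% of all genes, with a median log2 fold change of 0.29. Il1r1 was at 56.4, 77.7 and 65.5 CPM with NMN and 30.2, 21.7 and 31.3 CPM with water, and rose by 1.12 ± 0.19 (edgeR adjusted p = 0.00819). Nfkbia, the NF-kappaB inhibitor, rose by 1.23 (adjusted p = 0.00605, edgeR), Il6ra by 1.33 (adjusted p = 0.0295, edgeR), and Cebpa, a hepatocyte C/EBP factor, fell by 0.59 (adjusted p = 0.0489, edgeR). Il1r1 and Nfkbia were called in every fit with a library left out, Il6ra was lost without replicate 2 or 3 of either group, and Cebpa without any library but NMN replicate 2. Socs3, a feedback inhibitor that STAT3 induces (0.29, adjusted p = 0.776), Stat3 itself (0.40, 0.166) and Cebpd (0.83, 0.222) did not pass. Neutrophil markers were low in all 14 livers: S100a8, a neutrophil calcium-binding protein, was at most 4.37 CPM, S100a9, its partner, at most 5.47 CPM, and the 12 markers summed to 0.989 to 3.15 CPM with NMN and 1.36 to 3.64 CPM with water in this arm. None of 9 Kupffer cell and macrophage markers passed by edgeR, where 1 had an unadjusted p under 0.05 and DESeq2 called 0. Their sums overlapped, at 203 to 249 and 174 to 346 CPM.

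Whether the NMN effect differed between the arms was asked in 1 model of the 14 livers. None of the 10 genes passed, where 10 of 13412 genes did (0.0746%), at an unadjusted p under 0.05 there was 1 (Fga; 8.6% of all genes), and DESeq2 called none (0.86%). The difference of the log2 fold changes, 2680 minus 1340, was -0.54 ± 0.22 for Fga (edgeR adjusted p = 0.476), -2.88 ± 1.86 for Lcn2 (0.741) and 2.03 ± 0.99 for Saa3 (0.609). Without water replicate 3 of the 1340 arm it was -5.08 for Lcn2 and 1.04 for Saa3, and neither passed. An edgeR call of Orm2 in the higher arm and not in the lower is therefore not shown to be a difference between arms (0.71 ± 1.43, adjusted p = 0.954).

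The water livers of the 2 arms were compared because the arms differ in gavages per day and possibly in handling or sequencing, which cannot be told apart. None of the 10 genes passed, while 557 of 12541 genes did (4.44%, or 1038 genes with the replicate number as a block), none of the 10 had an unadjusted p under 0.05 (18.8% of all genes), and DESeq2 called none (6.19%). Hp was the gene of the 10 for which the arms did not overlap, at 3752 to 8778 CPM in the 1340 arm and 2745 to 3749 CPM in the 2680 arm, so close that the nearest libraries all but touched, a separation that 20.5% of all genes had (16% in this direction). Its log2 difference, 2680 minus 1340, was -0.62 ± 0.29 (edgeR adjusted p = 0.302). Water replicate 3 of the 1340 arm decided the value of the inducible genes here. Orm2 differed by 0.02 ± 1.22 with that library and by 2.09 without it (edgeR adjusted p = 9.59e-04), and Saa1 by -1.44 with and 1.61 without it (0.15 with all libraries and the replicate block).

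In the kidney the 10 genes were expressed at a small fraction of their liver level. Fga was at 0.451% of its water liver level in the 1340 arm and 0.465% in the 2680 arm, and Fgg at 0.247% and 0.189%. Fgb, at 0.130% in the 1340 arm, was below the median of the hepatocyte markers given next. In the 2680 arm Fgb was at 0.978 to 1.53 CPM in water kidneys and 6017 to 6261 CPM in water livers. The 10 hepatocyte markers had a median of 0.142% (0.0868% to 2.69%) in the 1340 arm and 0.0472% (0.00101% to 3.86%) in the 2680 arm, with Alb at 0.117% and 0.00919%. Of the 10 genes 4 and 7 were above that median. The first of these counts rested on the high water liver: without replicate 3 of the 1340 arm it was 7 as well, against a median of 0.141%, with Saa1 at 0.672% in place of 0.0769%, Saa2 at 1.08% in place of 0.0585% and Orm2 at 0.519% in place of 0.118%. Lcn2 was at 5.04% and 3.25% of its liver level, and at 24.1% in the 1340 arm without that liver, while Fga (0.448%) and Fgg (0.248%) stayed close to their values. Per kilobase, Fga was the highest of the 10 in water kidneys of both arms, at 10.8 ± 0.594 CPM per kb (SD, n = 4) and 9.49 ± 1.76 (n = 3), followed by Hp at 7.61 ± 1.962 and 8.45 ± 2.36, which in the 2680 arm did not differ from Fga beyond the spread.

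**Figure D5:**
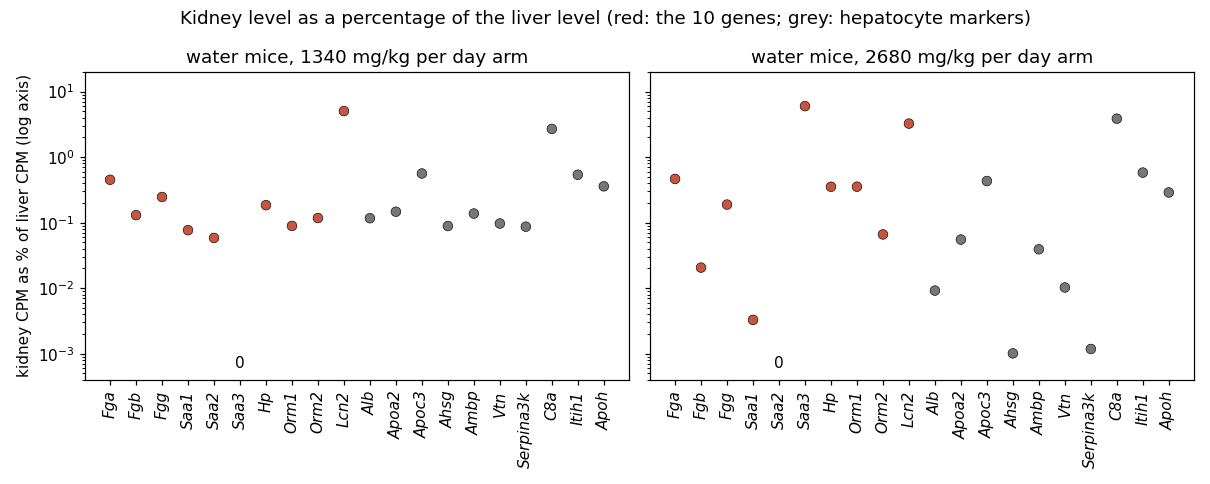
Kidney level as a percentage of the liver level in water mice of each arm, on a log axis, for the 10 genes (red) and 10 hepatocyte markers (grey), with genes at 0 in the kidney written as 0. Fga keeps nearly the same percentage in both arms (0.451% and 0.465%) while Alb is at 0.117% and 0.00919%.

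At 1340 mg/kg per day none of the 8 tested genes passed in the kidney (edgeR), while 18 of 14972 genes did (0.12%). None of the 8 had an unadjusted p under 0.05 (8.94% of all genes), DESeq2 called none (1.23%), and no gene separated the groups, against 5.08% of all genes. Fga was at 39.4, 43.2, 21.2 and 32.0 CPM with NMN and 27.2, 26.9, 27.2 and 30.2 CPM with water (log2 fold change 0.27 ± 0.18, edgeR adjusted p = 0.703). Fgg was at 12.5, 16.1, 13.3 and 14.4 CPM with NMN and 11.3, 11.5, 13.1 and 15.5 CPM with water (0.11 ± 0.15, adjusted p = 0.873, edgeR). The groups overlapped for both. Fgb, Saa1, Saa2, Hp, Orm1 and Lcn2 had log2 fold changes from -0.57 to 0.46, and Saa3 and Orm2 were too low to be tested. Of 17 other positive acute phase genes tested, Cp, the copper carrier ceruloplasmin, rose: it was at 42.4, 56.2, 52.6 and 53.0 CPM with NMN and 23.4, 39.1, 32.9 and 30.3 CPM with water (0.68 ± 0.12, adjusted p = 0.0393, edgeR). That call was lost in 5 of the 8 fits that left out 1 library, without NMN replicate 2 or 4 or water replicate 1, 3 or 4 (adjusted p of up to 0.178). Of the negative and signalling lists none was called, with 2 of 9 and 3 of 21 genes at an unadjusted p under 0.05 and none called by DESeq2.

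At 2680 mg/kg per day Fgg rose in the kidney. It was at 21.3, 16.4 and 18.8 CPM with NMN and at 8.59, 9.47 and 9.54 CPM with water, a log2 fold change of 1.03 ± 0.12 (2.04-fold, edgeR adjusted p = 0.00999). It was 1 of 6 tested genes of the list, where 61 of 15245 genes were called (0.4%), 18 of them higher (0.118%). Every NMN kidney was above every water kidney. Gm30097, a gene on the opposite strand that shares exon bases with Fgg, held 0 to 17 reads in any kidney library against 155 to 637 for Fgg. The call was lost without water replicate 3 (adjusted p = 0.0648).

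Fga was separated in the same direction, at 52.0, 31.0 and 37.7 CPM with NMN and 29.7, 20.9 and 23.1 CPM with water (log2 fold change 0.70 ± 0.19, edgeR adjusted p = 0.232). DESeq2 called both Fga (adjusted p = 0.00986) and Fgg, against 1.52% of all genes. At an unadjusted p under 0.05 there were 3 of 6 (Fga, Fgg and Hp), against 11.1% of all genes. Fga and Fgg were thus 2 of 6 genes without overlap, against 16.4% of all genes (8.32% higher). Fgb was at 5.63, 0.899 and 1.48 CPM with NMN and 1.53, 0.978 and 1.29 CPM with water (1.02 ± 0.70, adjusted p = 0.651, edgeR), so that 1 library carried its difference. The hepatocyte markers summed to 63.7 to 67.4 CPM with NMN and 61.2 to 69.0 CPM with water, and Alb was at 8.55, 16.5 and 15.5 against 9.80, 10.1 and 11.6 CPM (0.37 ± 0.25, adjusted p = 0.645, edgeR). Of the 7 hepatocyte markers tested 3 were higher and 4 lower, none with an unadjusted p under 0.05 and none called by DESeq2. From the negative acute phase list, Fetub and Trf were higher without overlap. Fetub, fetuin B, was at 4.14, 3.04 and 3.25 against 2.05, 2.20 and 1.64 CPM (0.81 ± 0.22, adjusted p = 0.173, edgeR). Trf, transferrin, was at 8.55, 8.99 and 11.99 against 7.01, 7.40 and 7.43 CPM (0.44 ± 0.17, adjusted p = 0.338, edgeR). The groups overlapped for Ttr, at 61.8, 109 and 92.0 against 77.3, 93.6 and 106 CPM, and for Rbp4 and Apoa1 of the same list. The summed level of kidney tubule markers was lower with NMN: 23009 to 27492 CPM with NMN and 30550 to 31678 CPM with water, without overlap, and in the 1340 arm, where Fgg overlapped, 25965 to 30939 and 32415 to 38949 CPM. None of the 8 tubule markers passed by edgeR in the 2680 arm, where 4 had an unadjusted p under 0.05 and DESeq2 called 3, among them Kap, an androgen-regulated proximal tubule gene (-0.43), and Lrp2, the endocytic receptor megalin (-0.29). Kap made up most of the sum, and the genes of the sum differed in direction. Kap, Slc34a1 and Slc5a2 were lower with NMN without overlap in both arms. Over all genes 8.04% were lower without overlap in the 2680 arm and 2.69% in the 1340 arm. In the 2680 arm Slc34a1 was at 3167 to 4367 against 4748 to 4964 CPM, and Slc5a2 at 121 to 187 against 198 to 238 CPM. In the 1340 arm they were at 5041 to 5959 against 6323 to 7038 CPM and at 202 to 327 against 353 to 467 CPM. In the 2680 arm the groups overlapped for Umod (0.18), Slc12a1 (-0.04), Slc12a3 (0.03) and Aqp2 (0.0022). In the 1340 arm Umod (0.30) and Slc12a1 (0.43) were higher with NMN without overlap, as were 2.38% of all genes. Neither passed by edgeR, and DESeq2 called Slc12a1 (adjusted p = 0.00967). The part of liver RNA or tubule content in the Fgg and Fga values was not tested. Hp (-0.49 ± 0.19, adjusted p = 0.374), Orm1 (0.54 ± 0.39) and Lcn2, a tubule injury marker (0.54 ± 0.58), did not pass, and Saa1, Saa2, Saa3 and Orm2 were too low to be tested. None of the genes of the other positive, negative and signalling lists passed, where 5 of 13, 3 of 8 and 6 of 22 had an unadjusted p under 0.05. DESeq2 called 2 of them, the metallothioneins Mt1 (edgeR 0.64, adjusted p = 0.0736) and Mt2 (0.83, adjusted p = 0.0648).

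For the difference between the arms in the NMN effect on the kidney, none of the 8 tested genes passed in the main edgeR fit, where 1 of 15989 genes was called (0.00625%). At an unadjusted p under 0.05 there was 1 of the 8 (4.62% of all genes), Fgg, whose log2 effect was larger by 0.91 ± 0.20 in the 2680 arm (edgeR adjusted p = 0.415). DESeq2 called Fgg (adjusted p = 0.0209), where it called 0.0774% of genes, and edgeR without a filter called Fgg as well.

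The organs were compared within each arm by the difference of the NMN effect, liver minus kidney. In the 2680 arm this difference was -1.44 ± 0.24 for Fgg (edgeR adjusted p = 0.00897) and -1.14 ± 0.28 for Fga (adjusted p = 0.0449, edgeR), so both chains were called, where 419 of 15811 genes were (2.65%), 253 of them lower (1.6%). The call for Fga was lost in 8 of the 12 fits that left out 1 library, with an adjusted p of up to 0.120. Fgb (-1.43 ± 0.67, adjusted p = 0.267), Hp (0.83 ± 0.30, 0.150), Orm1 (-1.01 ± 0.40, 0.178) and Lcn2 (-3.17 ± 1.05, 0.143) did not pass by edgeR. DESeq2, which called 7.67% of genes, called Fga, Fgg and Lcn2 (adjusted p = 0.0353). In the 1340 arm 0 of 10 genes passed by edgeR, as did 0 of 15614 genes (0%); 5.79% of all genes and none of the 10 had an unadjusted p under 0.05, and DESeq2 called none of the 10 (0.174% of genes). The chains differed there by -0.16 ± 0.26 (Fga), -0.01 ± 0.26 (Fgb) and -0.04 ± 0.22 (Fgg).

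Water kidneys differed between the arms in 4 of the 8 tested genes, where 2787 of 15267 genes were called (18.3%), 10.7% lower and 7.55% higher in the 2680 arm. Fgb was at 7.58, 6.58, 5.93 and 10.03 CPM in the 1340 arm and 1.53, 0.978 and 1.29 CPM in the 2680 arm, and fell by 2.40 on the log2 scale (SE 0.28, edgeR adjusted p = 3.63e-05). Saa1 and Saa2 had 88 and 53 reads over the 4 kidneys of the 1340 arm. In the 3 of the 2680 arm Saa1 had 1 read, a ratio of 74.2 between the arms with a 95% exact counting interval of 13.0 to 2963, and Saa2 had 0, which allows up to 0.0572 CPM over the group (3 counts), so that it was at least 14.9-fold lower (edgeR adjusted p = 2.09e-04 and 0.00111). Orm1 rose, from 1.02, 0.902, 0.716 and 2.17 CPM to 2.53, 3.79 and 6.32 CPM (1.97 ± 0.40, adjusted p = 0.00319, edgeR). Fgg was lower without overlap but did not pass (-0.32 ± 0.16, adjusted p = 0.183, edgeR). The arms were separated for these 5 genes, against 33.9% of all genes (28.3% lower, 5.63% higher). The Alb and summed hepatocyte marker levels given above were also lower in water kidneys of the 2680 arm, although C8a was higher. Adipocyte markers were higher in the 2680 arm, at 380 to 536 CPM against 58.7 to 162 CPM in the 1340 arm. Mitochondrial genes took 9.10% to 10.6% of counted reads in water kidneys of the 1340 arm and 19.8% to 21.6% in those of the 2680 arm, and alignments that were not unique made up 10.4% to 11.6% and 19.2% to 19.95%. Whether carried-over liver RNA, attached fat or these differences between the libraries bear on the Fgb, Saa and Orm1 values was not tested.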

How the data were processed

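Total RNA was polyA selected and sequenced. The paper names a NextSeq or a HiSeq instrument and does not say which libraries each one sequenced. The deposited values are raw counts per gene, made by the authors with STAR for alignment and HTSeq-count, without strand, for counting, with replicates kept apart. The genome name in the methods could not be matched to a build, so no coordinates of the counts are given, and the 5 HTSeq summary lines (18.6% to 29.3% of alignments) were left out. Gene names came from GENCODE M21, which matched 53229 identifiers with version and 1180 without, and not 37. CPM is counts per 1000000 counted reads, and CPM per kb divides by the longest coding transcript.

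Counts were tested with edgeR 4.0.16 (quasi-likelihood, robust, filterByExpr, TMM) in R 4.3.3, NMN against water within each organ and arm, with Benjamini-Hochberg adjustment over all tested genes and a threshold of 0.05. SE was taken as the absolute log2 fold change over the root of edgeR's F. DESeq2 1.42.0 was an alternative, as were other scalings, filters, a stricter threshold (adjusted p under 0.01 and a fold over 2), summed copies, a replicate block and each library left out. The kidney percentages without 1 high liver library were added after the data were seen. On simulated counts with 200 genes changed by 1.5 log2 units, edgeR recovered 80% of them in the liver at 1340 mg/kg per day, 70% in the liver at 2680, 90.5% in the kidney at 1340 and 87.5% in the kidney at 2680. Of the edgeR calls on these counts 5.33% to 9.79% were false. Recovery was taken over all changed genes together. It does not give the power for genes as variable as Saa1, Saa2, Lcn2 and Orm2 in the liver. Pairs of libraries within a group differed by more than counting noise (lowest chi-square per degree of freedom 6.67). Precision rests on the number of libraries, and counting intervals and limits cover counting error only.

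Of the NMN comparisons, same-numbered libraries correlated positively in all pairs only in the liver at 2680 mg/kg per day (0.047 to 0.121). In the others the lowest correlations were -0.091 to -0.011. In the water livers all 3 pairs were positive (0.130 to 0.287), as in the water kidneys (0.040 to 0.121), although these mice belonged to different arms. The 10 genes, the 9 other lists and the tests were chosen with earlier results of these data known. Named genes were the 10, the 3 with the smallest p of each list described, fixed regulators, the 5 most correlated genes and genes that passed, of which 2 are not reported here.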

Additional observations from a re-analysis of the deposited data

Results flagged for a closer look

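Among 39 sets of 4 libraries tested for a library far from the rest by Dixon's test, which chance passes in about 1 of 20 sets, 8 held one. Water liver replicate 3 of the 1340 arm accounted for 6 of them, with Saa1 at 6732 CPM, Saa2 at 5593, Saa3 at 27.99, Orm1 at 2544, Orm2 at 408 and Lcn2 at 264 CPM. This library was in every comparison with these water livers.

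The other 2 were in the kidney of the 1340 arm. Fga in water replicate 4 was at 30.2 CPM, next to 27.2 CPM. Saa3 in NMN replicate 2 was at 0.152 CPM, with the other 3 libraries listed at 0, near the level of a few reads.

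The NMN effect differed between liver and kidney at 2680 mg/kg per day for Fga (-1.14, edgeR adjusted p = 0.0449) and Fgg (-1.44, edgeR adjusted p = 0.00897), liver minus kidney on the log2 scale. Fgg had higher values in 3 of 3 NMN kidneys and lower values in 2 of 3 NMN livers than any water library of the organ.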

How the results depend on the processing

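None of the 10 genes was called in the liver or kidney at 1340 mg/kg per day, in the liver arm difference or in the 1340 organ difference under any alternative run. Elsewhere the count of the 10 genes called depended on the setting, the cause of which was not tested. In the liver at 2680 the 1 call became 3 with DESeq2, 5 without a filter, 4 with the replicate block (Saa1, Saa2, Orm1 and Lcn2), 2 without robust estimates, 0 under the stricter threshold, with all 14 libraries or with copies summed, and 0 to 4 when libraries were left out. In the kidney at 2680 it became 2 with DESeq2, no filter or the block (Fga joined Fgg) and 0 to 1 with a library left out. The 2680 organ difference had 7 without a filter and 1 to 2 with a library left out, the kidney arm difference 1 with DESeq2 or no filter, and the water livers 0 to 1 with a library left out.

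Genes called in the liver at 1340 numbered 2, and 74 with DESeq2, 44 without a filter, 16 with the block, 0 under the stricter threshold, 6 with all 14 libraries and 0 to 18 with a library left out. In the liver at 2680, 883 became 1448 (DESeq2), 1785 (no filter), 135 (stricter) and 211 to 1308 (a library left out). In the kidney at 1340, 18 became 159, 269, 75 (block), 5 (not robust), 2 (stricter) and 5 to 67. In the kidney at 2680, 61 became 236, 514, 92 (block), 3 (stricter), 35 (all 14) and 3 to 191. DESeq2 and no filter gave 99 and 71 for the liver arm difference (7 to 25 with a library left out), 1002 and 1236 for the water livers (1038 with the block, 310 to 657), 10 and 106 for the kidney arm difference (0 to 1), 26 and 9 for the 1340 organ difference (2 with the block, 0 to 9) and 1232 and 1307 for the 2680 organ difference (118 to 1347). Water kidneys ranged from 1632 to 2880 with a library left out.

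Signs turned only for values that did not pass. With the block, Saa1 and Saa2 in the liver at 1340 became 0.88 and 0.64, and Saa1 between water livers 0.15. With a library left out, log2 values in the liver at 1340 ran from -0.022 to 0.20 (Fgb), -0.012 to 0.21 (Fgg), -1.91 to 1.64 (Saa1), -3.53 to 1.32 (Saa2), -0.40 to 0.33 (Orm1) and -0.24 to 2.47 (Lcn2), in the kidney at 1340 from -0.021 to 0.26 (Fgb), -0.57 to 0.049 (Saa2) and -0.26 to 0.030 (Hp), in the kidney at 2680 from -0.057 to 1.41 (Fgb) and -0.17 to 0.99 (Lcn2), and between water livers from -1.95 to 1.61 (Saa1) and -0.33 to 2.09 (Orm2). The labels do not tie the replicate numbers to a batch or day. Correlations of same-numbered libraries were at most 0.138 in the NMN comparisons, so calls under the block are not read as stronger or weaker effects. Kidney values of Saa1, Saa2, Saa3 and Orm2 rest on a few reads, which limits what this depth can show.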

Other observations

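Among cell type markers not described above, none of 2 adipocyte and 7 endothelial and stellate cell markers tested in the liver passed the edgeR test at 1340 or 2680 mg/kg per day (at an unadjusted p under 0.05 there were 0 and 3, and 0 and 1, and DESeq2 called 0 and 0, and 0 and 1). None of 5 and 7 adipocyte markers passed in the kidney at 1340 and 2680 mg/kg per day either, where 0 and 2 had an unadjusted p under 0.05 and DESeq2 called 0 and 1.

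The Saa2 share of Saa1 and Saa2 reads in liver ran from 14.7%, in the library with the fewest Saa1 reads (NMN replicate 2 of the 2680 arm, 394 reads), to 45.4%, in the library with the most (water replicate 3 of the 1340 arm, 92861 reads). Reads in runs common to the copies make the share itself uncertain.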
